A study of Arabidopsis thaliana with 6 samples.

Results

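The DELLA and gibberellin perception genes of Arabidopsis thaliana were examined in seeds harvested 8 days after pollination. They were 10 genes chosen by identifier: the 5 DELLA genes RGA, GAI, RGL1, RGL2 and RGL3, the 3 receptor genes GID1A, GID1B and GID1C, the F-box gene SLY1 and the glycosyltransferase gene SPY. Of the 10, 8 were among the 16967 genes of the deposited table, while GID1B (AT3G63010) and GID1C (AT5G27320) were absent from it and were not analysed here. Expression was given as RPKM, read counts scaled to gene length and library size. A gene is listed where every sample of one genotype or the other exceeds 2 RPKM. All 8 genes were above 2 RPKM in all 6 samples, so none was listed through only 1 group, and all 8 passed the filter on low values and were tested.

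Samples fell into 2 genotypes of 3 samples each. The wild type was Col-0, a standard laboratory accession, and the mutant was tt7-7, an allele of the flavonoid 3'-hydroxylase gene TT7, for which the labels also give Col-0 as the accession. No treatment is named for either group, the lesion in tt7-7 is not described in the labels, and all 6 samples have the same stated age. Whether the samples of a genotype came from separate plants is not stated, so p-values measure the spread between these samples, which may be technical. Seeds were sampled whole and hold embryo, endosperm and seed coat. In such samples, fewer cells of a type and less RNA per cell cannot be told apart.

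Gibberellin is a growth hormone that in seeds promotes embryo growth and germination and opposes the dormancy hormone abscisic acid. It is bound by GID1 receptors, and the bound receptor takes hold of DELLA proteins, nuclear repressors of growth that belong to the GRAS family. The F-box protein SLY1 then brings the DELLA protein to an SCF ubiquitin ligase for degradation, while SPY, an O-fucosyltransferase, modifies DELLA proteins and favours their repressor activity. Transcript levels do not measure DELLA protein.

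The DELLA family is named after a short motif near the start of the protein that is needed for binding to the receptor. Its codons are shown because the 5 genes are compared with each other below, and because similar genes can share reads. Each window was read from the RefSeq genome TAIR10.1 in the sense of the gene, 30 bases of coding sequence on either side of the motif, with the 15 bases of the motif in capitals. The windows lie on the minus strand at chr2:257171-257245 for RGA, on the plus strand at chr1:5149465-5149539 for GAI and chr1:24748390-24748464 for RGL1, and on the minus strand at chr3:821106-821180 for RGL2 and chr5:5765744-5765818 for RGL3. All 5 lie in the coding part of a gene with 1 exon.
RGA: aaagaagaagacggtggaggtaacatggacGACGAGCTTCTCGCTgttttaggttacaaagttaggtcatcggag
GAI: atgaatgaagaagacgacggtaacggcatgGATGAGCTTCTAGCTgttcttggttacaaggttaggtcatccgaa
RGL1: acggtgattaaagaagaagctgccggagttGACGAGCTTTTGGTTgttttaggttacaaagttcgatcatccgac
RGL2: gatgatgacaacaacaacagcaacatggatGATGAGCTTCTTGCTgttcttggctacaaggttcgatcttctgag
RGL3: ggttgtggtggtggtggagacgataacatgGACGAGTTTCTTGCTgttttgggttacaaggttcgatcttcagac
The codons of RGA, GAI and RGL2 spell the motif as the family name has it, and those of RGL1 and RGL3 spell a variant of it. RGL1 differed from GAI, RGL2 and RGL3 at 4 of the 15 motif bases and from RGA at 3, whereas GAI and RGL2 differed at 1. Over the whole coding sequence, identity between pairs of DELLA genes ranged from 59.2% for RGA with RGL1 to 74.7% for RGA with GAI. The longest run shared by any pair of their RefSeq transcripts was 30 bases, between RGA and GAI. No window of 50 bases of any of the 8 measured genes was found in the longest transcript of another annotated gene, and none of the 8 overlapped a neighbouring gene in that annotation.

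The libraries held 13677094 to 20547689 reads by the steps of the RPKM values. TT7 (AT5G07990), the mutated gene, was at 240 to 499 RPKM in Col-0 and at 86.0 to 103 RPKM in tt7-7. Genes for seed storage and oil body proteins, which mark the maturing embryo, separated the libraries: 9 of 9 listed genes were measured, and their summed level was 19865 to 127376 RPKM in Col-0 against 915 to 6030 RPKM in tt7-7. They took 13.5% of the reads in Col-0 replicate 3, against 1.96% and 4.16% in the other Col-0 libraries and at most 0.597% in tt7-7, so Col-0 replicate 3 stood apart within its group. The 5 embryo regulators summed to 196 to 285 RPKM in Col-0 and 264 to 302 RPKM in tt7-7. Called higher in tt7-7 were 3 of them, LEC2, FUS3 and ABI3, and 51.1% of all tested genes. Under median-ratio scaling FUS3 and ABI3 were not called, and LEC1 was called lower at -0.78 (limma adjusted p = 0.00382). Seed coat markers, 7 of 7 measured, summed to 771 to 1206 RPKM and 1310 to 1688 RPKM. Of these BAN, at means of 78.1 and 369 RPKM, and TT12 were called higher, while MUM4, PMEI6 and PRX36 had log2 fold changes of -0.011, -0.26 and -0.011 and were called lower under median-ratio scaling. Endosperm markers, 5 of 9 measured, summed to 545 to 910 RPKM and 462 to 1186 RPKM, mostly from EPR1, whose groups overlapped. FWA and FIS2 were called higher but were listed through tt7-7 alone, and MEA, AGL62, IKU2 and MINI3 were not analysed here. FUL, SHP1 and SHP2, which mark the silique wall but of which SHP1 and SHP2 are also active in ovules and seed coats, summed to 46.3 to 54.9 RPKM and 100 to 105 RPKM. SHP1 and SHP2 were called higher, while FUL overlapped between the genotypes, with a log2 fold change of 0.10 (limma adjusted p = 0.645). The part that these differences play in the results was not tested.

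Of the 8 genes tested, 2 rose in tt7-7, the receptor gene GID1A and SPY, and 1 fell, the DELLA gene RGL1. The test was limma on log2(RPKM + 1) over all 16663 genes with a mean of at least 2 RPKM, with Benjamini-Hochberg adjustment and a threshold of 0.05. In the same fit 51.1% of all tested genes were called higher in tt7-7 and 8.47% lower, 59.6% in either direction. Groups that did not overlap were found for 4 of the 8 genes, GID1A, SPY, RGL1 and GAI, and for 66.2% of all tested genes. Without Col-0 replicate 3, GAI joined the genes that fell, and the calls of the other 3 were kept. The median log2 fold change, tt7-7 minus Col-0, was 0.02 over the 8 genes and 0.44 over all tested genes. A gene at 0 on the deposited scale therefore lay below the typical gene. When the samples were rescaled by median ratios, the median of all tested genes moved to -0.02, and 26.9% were called higher and 26.8% lower.

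**Figure D1:**
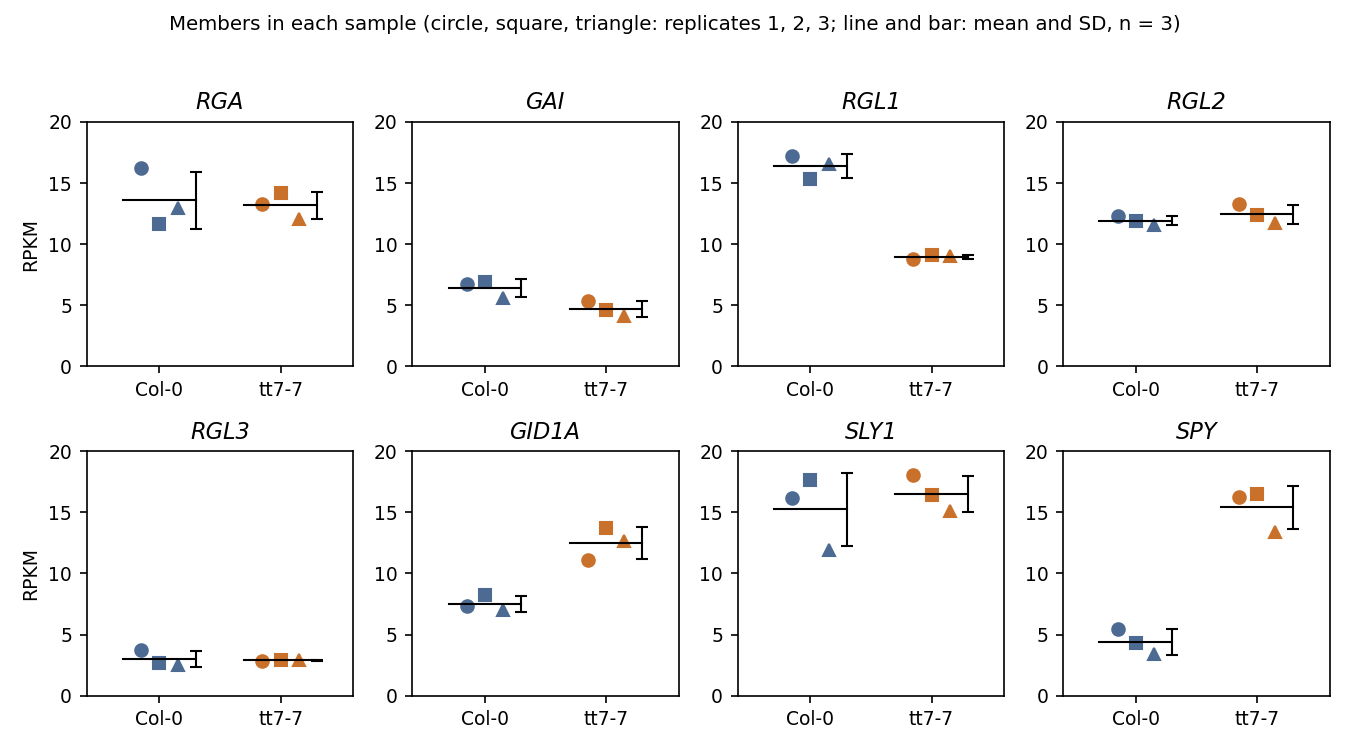
RPKM of the 8 measured genes in each sample, with replicates 1, 2 and 3 as circle, square and triangle and the mean and SD of 3 samples per genotype as line and bar. RGL1 and GAI lie lower in all 3 tt7-7 samples than in any Col-0 sample, GID1A and SPY lie higher, and the other 4 overlap.

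Among the DELLA genes RGL1 (AT1G66350), a repressor with a part in seed germination and flowering, was the one that fell. Values are given here and below in the order of replicates 1, 2 and 3. Col-0 samples had 17.3, 15.3 and 16.5 RPKM of RGL1, on 738, 436 and 665 reads, while tt7-7 samples had 8.76, 9.10 and 9.01 RPKM, on 284, 382 and 381 reads. The 3 tt7-7 values lay close together and far below the lowest Col-0 value. The means were 16.4 ± 0.980 RPKM and 8.96 ± 0.179 RPKM (SD, n = 3 each), 1.83-fold lower in tt7-7. On the scale of log2(RPKM + 1), the log2 scale here and below, the change was -0.80 (standard error 0.12, 95% interval -1.08 to -0.52). The limma adjusted p was 0.000628. Adding 1 makes such a change smaller than the log2 of the ratio of the means. Groups that did not overlap, with tt7-7 lower, were found for 9.97% of all tested genes. With each sample left out in turn the change ranged from -0.85 to -0.76 and was called in all 6 fits, at -0.79 without Col-0 replicate 3.

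GAI (AT1G14920), the DELLA gene in which the gibberellin-insensitive dwarf mutant was found, was at 6.78, 6.91 and 5.59 RPKM in Col-0 and at 5.38, 4.63 and 4.09 RPKM in tt7-7. All 3 tt7-7 samples were lower than all 3 Col-0 samples, but the nearest values, in Col-0 replicate 3 and tt7-7 replicate 1, were close. It changed by -0.38 on the log2 scale (standard error 0.15), and the limma adjusted p was 0.0510, just outside the threshold. Without Col-0 replicate 3, the library rich in storage transcripts, it was -0.47 with a limma adjusted p of 0.0346, and without tt7-7 replicate 1 it was -0.47 with 0.0473. Without any of the other 4 samples the adjusted p lay between 0.0955 and 0.163. GAI was thus neither clearly changed nor shown to be unchanged on the deposited scale.

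The remaining DELLA genes did not pass. RGA (AT2G01570), the DELLA gene with the broadest part in stem growth, was at 16.2, 11.6 and 12.9 RPKM in Col-0 and at 13.3, 14.2 and 12.05 RPKM in tt7-7. RGL2 (AT3G03450), the main DELLA repressor of germination, was at 12.3, 11.9 and 11.6 RPKM in Col-0 and at 13.2, 12.4 and 11.7 RPKM in tt7-7. RGL3 (AT5G17490), known for its link to jasmonate signalling, was at 3.77, 2.66 and 2.54 RPKM in Col-0 and at 2.87, 2.92 and 2.90 RPKM in tt7-7. The groups overlapped for all 3 genes, and Col-0 replicate 1 was the highest sample for RGA and RGL3. RGL3 rested on the fewest reads, 82 to 175 per library. The log2 fold changes were -0.03 for RGA (95% interval -0.37 to 0.31), 0.06 for RGL2 (-0.22 to 0.33) and -0.02 for RGL3 (-0.38 to 0.34), with limma adjusted p of 0.875, 0.711 and 0.920.

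Under median-ratio scaling all 5 DELLA genes were called lower in tt7-7, where 26.8% of all tested genes were. The log2 fold changes on that scale were -1.27 for RGL1, -0.81 for GAI, -0.50 for RGA, -0.41 for RGL2 and -0.39 for RGL3, with limma adjusted p of 0.000555, 0.00186, 0.0113, 0.0128 and 0.0252. Quantile normalization called the same 5 genes lower, and 3576 of all 16663 tested genes. RGL1 therefore fell under both views, while the call for the others depended on whether levels were compared by library size or with the median gene.

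**Figure D2:**
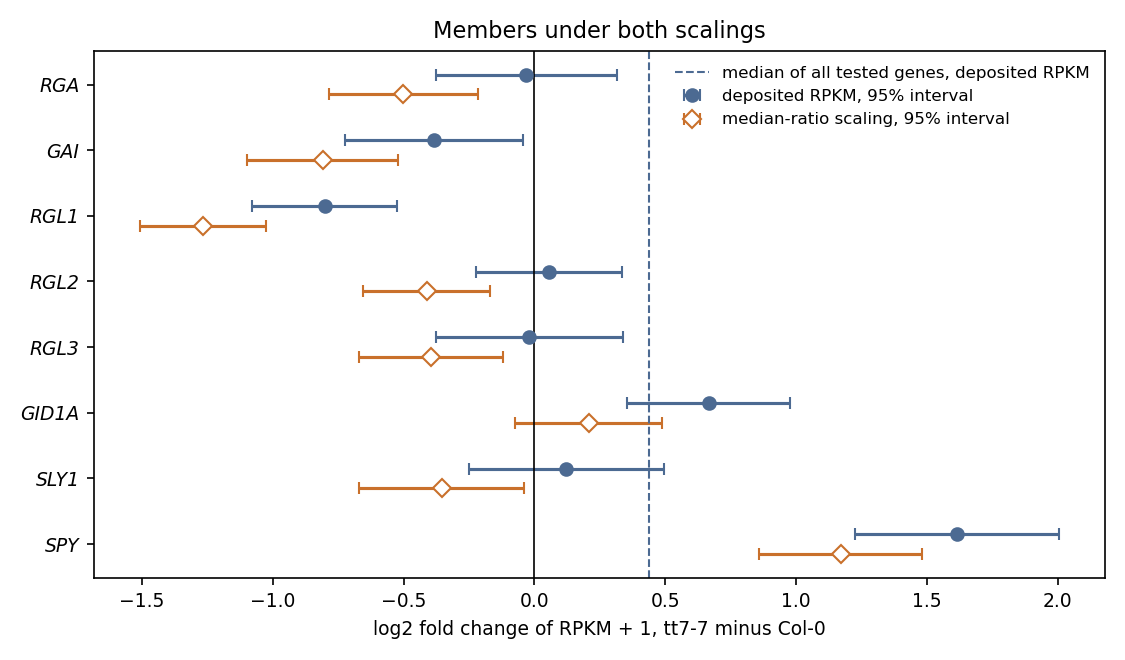
Log2 fold change of RPKM + 1, tt7-7 minus Col-0, for the 8 genes on the deposited scale (filled circles) and after median-ratio scaling (open diamonds), with 95% intervals, and a dashed line at the deposited-scale median of all tested genes, 0.44. On the deposited scale every DELLA gene and SLY1 lie left of the dashed line. For the open diamonds the median of all tested genes is -0.02. SPY lies right of 0 on both scales, and GID1A moves from 0.67 to 0.21.

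The make-up of the DELLA transcript pool within a sample does not depend on scaling between samples. RGL1 held 30.6%, 31.6% and 33.6% of the summed DELLA RPKM in Col-0 but 20.1%, 21.0% and 22.7% in tt7-7. RGL2 held 21.9%, 24.6% and 23.5% in Col-0 and 30.4%, 28.7% and 29.5% in tt7-7, so its share lay above every Col-0 sample in all 3 tt7-7 samples. RGA moved the same way, from 28.8%, 24.0% and 26.3% to 30.5%, 32.8% and 30.3%. RGL1 thus had the largest share in all 3 Col-0 samples and ranked behind RGA and RGL2 in all 3 tt7-7 samples. GAI, at 10.3% to 14.3%, and RGL3, at 5.17% to 7.30%, overlapped between the genotypes. These shares sum to a whole, so a fall in 1 gene raises the shares of the others, and no test is given on them. The ratio of RGL2 to RGL1, which rests on those 2 genes alone, was 0.714, 0.777 and 0.700 in Col-0 and 1.51, 1.36 and 1.30 in tt7-7. The summed DELLA level was 56.3, 48.4 and 49.2 RPKM in Col-0 and 43.6, 43.2 and 39.8 RPKM in tt7-7.

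**Figure D3:**
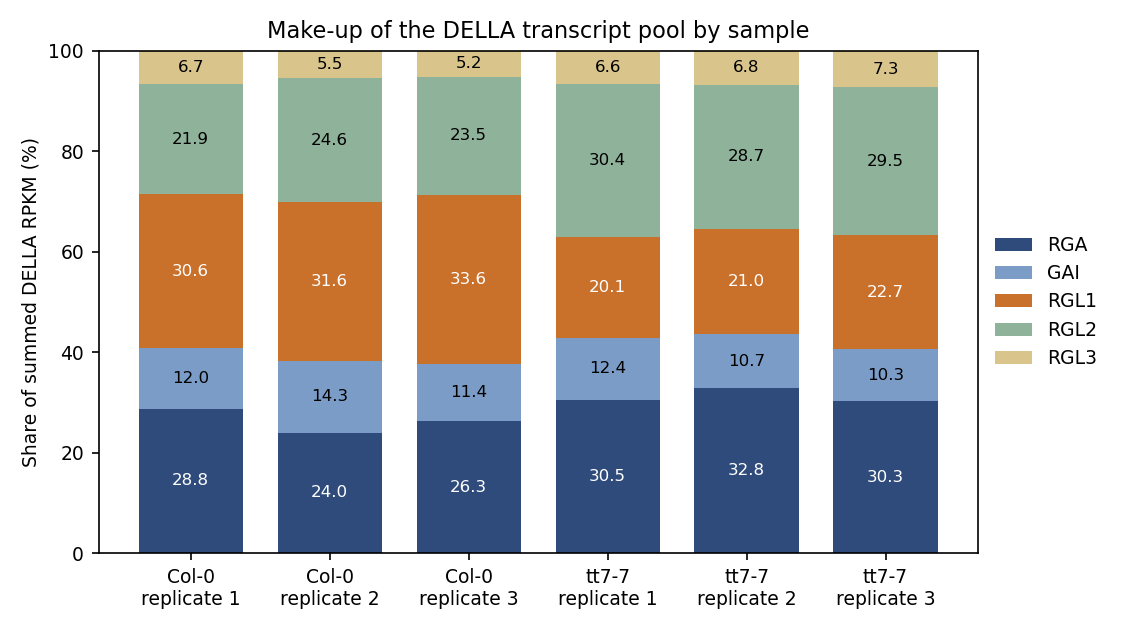
Share of each DELLA gene in the summed RPKM of the 5 DELLA genes, in percent, 1 bar per sample. RGL1 takes 30.6% to 33.6% in the 3 Col-0 samples and 20.1% to 22.7% in the 3 tt7-7 samples, and RGA and RGL2 take more in tt7-7.

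Of the receptors GID1A (AT3G05120) could be followed. It was at 7.30, 8.21 and 6.97 RPKM in Col-0, on 215 to 287 reads, and at 11.1, 13.8 and 12.6 RPKM in tt7-7, on 331 to 531 reads. All 3 tt7-7 samples were higher than all 3 Col-0 samples, an arrangement shared by 56.2% of all tested genes. The means were 7.49 ± 0.643 RPKM and 12.5 ± 1.33 RPKM (SD, n = 3 each), 1.67-fold higher in tt7-7. On the scale of log2(RPKM + 1) the change in GID1A was 0.67 (standard error 0.14, 95% interval 0.35 to 0.98), with a limma adjusted p of 0.00290. It was called without each of the 6 samples in turn, at 0.62 without Col-0 replicate 3. Median-ratio scaling reduced it to 0.21 (limma adjusted p = 0.183), and quantile normalization to 0.14 (limma adjusted p = 0.349). Relative to the DELLA genes of the same sample the receptor was more abundant in the mutant: its RPKM was 0.130, 0.170 and 0.142 times the summed DELLA RPKM in Col-0 and 0.255, 0.318 and 0.318 times in tt7-7. The same ratio of SLY1, described next, was 0.287, 0.365 and 0.242 in Col-0 and 0.414, 0.379 and 0.380 in tt7-7 and did not overlap either, so a rise against the DELLA sum, which was itself lower in tt7-7, was not particular to GID1A.

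SLY1 (AT4G24210), the F-box subunit that recognises DELLA proteins, did not pass the test. It was at 16.2, 17.7 and 11.9 RPKM in Col-0 and at 18.0, 16.4 and 15.1 RPKM in tt7-7, and the groups overlapped, with Col-0 replicate 3 the lowest sample. Its change was 0.12 on the log2 scale (95% interval -0.25 to 0.49; limma adjusted p = 0.546). Under median-ratio scaling it was -0.35 (limma adjusted p = 0.0578) and without Col-0 replicate 3 it was -0.036, so its sign was not fixed by the data.

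SPY (AT3G11540) showed the largest change of the 8 genes. It was at 5.49, 4.33 and 3.39 RPKM in Col-0, on 444, 233 and 258 reads, and at 16.3, 16.5 and 13.4 RPKM in tt7-7, on 997, 1310 and 1071 reads. The lowest tt7-7 sample was above the highest Col-0 sample by a wide margin. The means were 4.41 ± 1.05 RPKM and 15.4 ± 1.73 RPKM (SD, n = 3 each), 3.50-fold higher in tt7-7. On the scale of log2(RPKM + 1) SPY changed by 1.61 (standard error 0.17, 95% interval 1.22 to 2.00), and the limma adjusted p was 0.000142. It stayed called under median-ratio scaling at 1.17, with each sample's trend on gene length removed at 1.01, and without Col-0 replicate 3 at 1.47. SPY is the longest of the 8 genes, with a RefSeq transcript of 3933 bases and 18 exons against 1204 to 2434 bases and 1 or 2 exons for the others. In proportion to the summed DELLA RPKM of its sample it went from 0.0976, 0.0895 and 0.0690 in Col-0 to 0.374, 0.382 and 0.337 in tt7-7.

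The order of the levels also differed between the genotypes. In Col-0 the means ran from RGL1 at 16.4 RPKM through SLY1 at 15.2, RGA at 13.6 and RGL2 at 11.9 to GID1A at 7.49, GAI at 6.43, SPY at 4.41 and RGL3 at 2.99 RPKM. The sample values of neighbours overlapped from RGL1 down to RGL2 and between SPY and RGL3, and they were separate at the steps from RGL2 to GID1A, from GID1A to GAI and from GAI to SPY. In tt7-7 the order was SLY1 at 16.5, SPY at 15.4, RGA at 13.2, GID1A at 12.5, RGL2 at 12.5, RGL1 at 8.96, GAI at 4.70 and RGL3 at 2.90 RPKM. The first 5 overlapped with their neighbours, and RGL1, GAI and RGL3 each lay apart. SPY thus went from seventh to second and RGL1 from first to sixth. SPY was above 25.2% of the genes of the table by its Col-0 mean and above 52.6% by its tt7-7 mean, and RGL1 above 65.1% and 32.8%.

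With the two-sided exact permutation test of single genes, RGL1, GAI, GID1A and SPY had p = 0.1, the smallest value that 3 against 3 samples allow, so this test cannot reach 0.05. For each of the 3 called genes, the tested gene with the most similar profile was found as the smallest root mean square difference of centred log2(RPKM + 1) over the 6 samples. For RGL1 it was AT1G18210, at 55.6, 51.1 and 55.1 RPKM in Col-0 and 30.4, 32.9 and 31.4 RPKM in tt7-7, with a difference of 0.03 on the log2 scale. For GID1A it was TEJ (AT2G31870), a poly(ADP-ribose) glycohydrolase gene, and for SPY it was AT1G79990, both with a difference of 0.03. TEJ was at 1.33, 1.52 and 1.11 RPKM in Col-0 and at 2.37, 3.02 and 2.77 RPKM in tt7-7. It was thus listed through tt7-7 alone, so its direction was fixed by the listing. Among the 8 genes themselves GAI was nearest to RGL1 at 0.26, and the nearest to SPY was GID1A at 0.52, so none shared the profile of SPY closely.

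Other gibberellin genes were described from 6 lists with 61 genes, of which 43 were tested. In these lists 20 genes were called higher and 6 lower in tt7-7, where 51.1% and 8.47% of all tested genes were called, and the share called higher was near that of all genes. GA2OX4, MYB33 and MYB65, among those called higher, were listed through tt7-7 alone, so their calls are not independent of the listing. The median log2 fold change was 0.35 in the lists and 0.44 over all tested genes. Under median-ratio scaling 12 rose and 14 fell, where 26.9% and 26.8% of all tested genes did. The median was then -0.14, so the split between higher and lower calls depended on the scaling. Directions given for single genes below are those of the deposited scale, and the shares and median of all tested genes are the measure for each list's count.

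**Figure D4:**
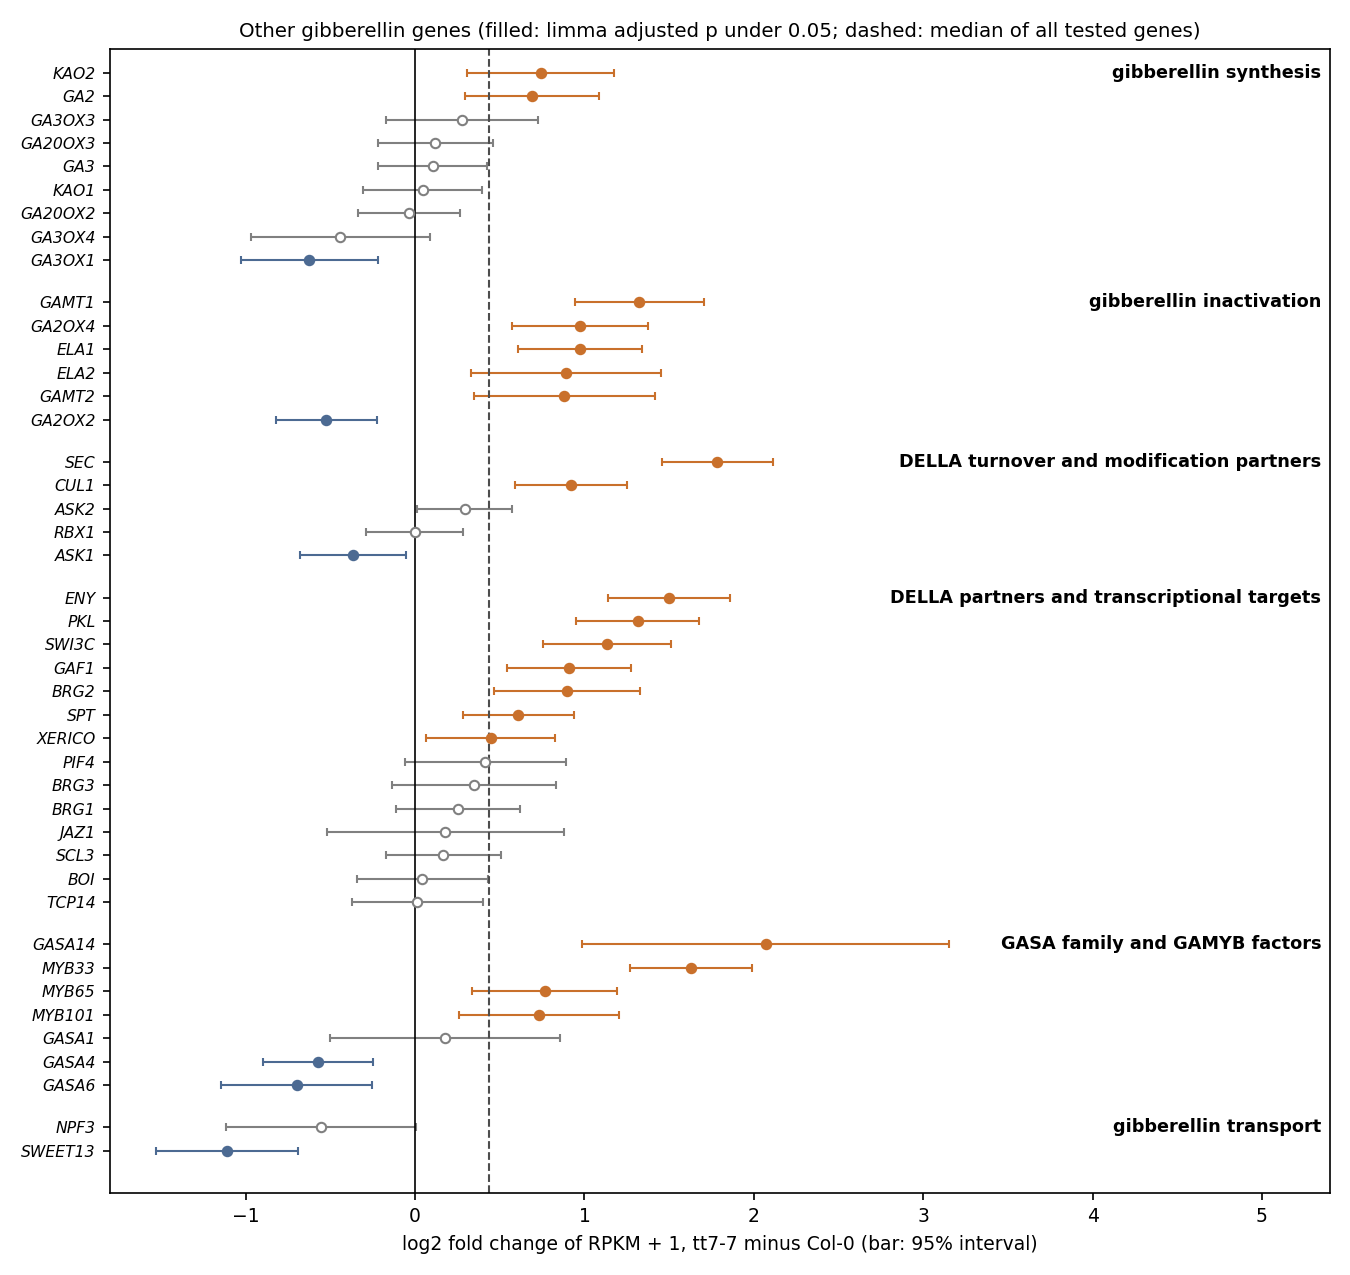
Log2 fold change of RPKM + 1, tt7-7 minus Col-0, with 95% intervals for the 43 tested genes of 6 gibberellin lists. Filled points passed a limma adjusted p of 0.05, and the dashed line marks the median of all tested genes, 0.44. SEC, MYB33 and GASA14 lie farthest right and SWEET13 farthest left. MYB33, MYB65 and GA2OX4 were listed through tt7-7 alone.

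The partners that modify and degrade DELLA proteins included the second largest rise in the lists. SEC (AT3G04240), the O-GlcNAc transferase related to SPY that acts on the same proteins and lowers their repressor activity, was at 11.4, 8.58 and 8.81 RPKM in Col-0 and at 35.8, 37.3 and 32.9 RPKM in tt7-7. It changed by 1.78 on the log2 scale (standard error 0.14; limma adjusted p = 8.72e-05). The change was 1.31 both under median-ratio scaling and with the length trend removed. SEC and SPY thus rose together, and the ratio of SEC to SPY overlapped between genotypes, at 2.08, 1.98 and 2.60 in Col-0 and 2.20, 2.26 and 2.46 in tt7-7. Of the SCF ligase subunits that act with SLY1, the cullin CUL1 rose from 52.6 ± 7.73 to 99.8 ± 6.23 RPKM (SD, n = 3 each), by 0.92 on the log2 scale. Its change was 0.42 under median-ratio scaling and 0.63 with the length trend removed, and it stayed called. The adaptor ASK1 fell from 197 ± 11.2 to 153 ± 11.4 RPKM, with a limma adjusted p of 0.0449. That call was lost without any single sample other than Col-0 replicate 3, at limma adjusted p of 0.0730 to 0.150, and the change was -0.088 with the length trend removed. The adaptor ASK2 and the RING subunit RBX1 were not called, although under median-ratio scaling RBX1 was called lower at -0.50 (limma adjusted p = 0.00529). SNE, an F-box gene related to SLY1, was not analysed here.

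In gibberellin synthesis 9 of 14 genes were tested, of which 2 rose and 1 fell, against 51.1% and 8.47% of all tested genes, and their median log2 fold change was 0.10. Under median-ratio scaling 0 rose and 6 fell, where 26.9% and 26.8% of all tested genes did. The median on that scale was -0.39, against -0.02 over all tested genes. GA2, which encodes ent-kaurene synthase, rose from 12.4 ± 3.06 to 20.3 ± 1.78 RPKM, and KAO2, an ent-kaurenoic acid oxidase gene, from 31.9 ± 8.92 to 52.8 ± 4.95 RPKM (SD, n = 3 each). GA3OX1, whose enzyme makes bioactive gibberellin in the last step, fell from 8.48 ± 0.703 to 5.24 ± 1.35 RPKM, a change of -0.63 on the log2 scale (limma adjusted p = 0.0143). It was not called without tt7-7 replicate 2, at -0.45 (limma adjusted p = 0.0589). GA3, which encodes ent-kaurene oxidase, and KAO1, the paralogue of KAO2, had log2 fold changes of 0.10 and 0.044 and did not pass. GA20OX3, the most abundant of the tested synthesis genes, was at 127 to 171 RPKM in Col-0 and 154 to 164 RPKM in tt7-7 and did not pass. Under median-ratio scaling GA2 and KAO2 were not called, and GA3, KAO1, GA20OX2, GA20OX3 and GA3OX4 joined GA3OX1 as called lower, at -0.87 to -0.38 for the 5 added genes.

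Among genes that inactivate gibberellin 6 of 11 were tested and all 6 were called, where 59.6% of all tested genes were. Of these 5 rose, 1 of them listed through tt7-7 alone, and 1 fell, and their median log2 fold change was 0.93. GAMT1, a methyltransferase gene known from developing seeds, rose from 71.9 ± 12.6 to 180 ± 19.5 RPKM, by 1.32 on the log2 scale (limma adjusted p = 0.000274). GAMT2, its relative, rose from 53.8 ± 19.5 to 96.3 ± 11.6 RPKM (SD, n = 3 each). The cytochrome P450 genes ELA1 and ELA2, which lie next to each other on the chromosome, changed by 0.97 and 0.89 on the log2 scale. Whether these related genes share reads was not tested. GA2OX4, a gibberellin 2-oxidase gene, changed by 0.97, but it was below 2 RPKM in Col-0 and was listed through tt7-7 alone, so it had to differ. GA2OX2 went the other way, from 5.54 ± 0.294 to 3.55 ± 0.227 RPKM, a change of -0.52 on the log2 scale (limma adjusted p = 0.00767). Under median-ratio scaling 3 of the 6 were called higher and 1 lower, where 26.9% and 26.8% of all tested genes were. The 3 included GA2OX4, and GAMT2 and ELA2 were not called.

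Of 18 genes for DELLA partners and transcriptional targets 14 were tested, and 7 of them rose while 0 fell, around a median log2 fold change of 0.43. Both the share that rose and the median were near those of all tested genes, 51.1% and 0.44. No tested gene of this list had a limma log2 fold change below 0 on the deposited scale, and 1, BOI, was called lower under median-ratio scaling. ENY and GAF1, zinc finger genes of the IDD family whose proteins bind DELLA proteins, changed by 1.499 and 0.91 on the log2 scale. PKL, a chromatin remodeller that represses embryo traits after germination, rose from 13.4 ± 2.88 to 34.5 ± 2.02 RPKM, and SWI3C, a subunit of another remodelling complex, from 11.8 ± 2.72 to 26.8 ± 1.39 RPKM (SD, n = 3 each). With the length trend removed PKL went from 1.31 to 0.59 on the log2 scale and SWI3C from 1.13 to 0.86, both still called. BRG2, a RING protein gene, and SPT, a bHLH gene linked to germination, changed by 0.90 and 0.61, and SPT was not called under median-ratio scaling, at 0.13 (limma adjusted p = 0.359). The GRAS gene SCL3, which is induced by DELLA proteins, was at 6.12 to 8.498 RPKM in Col-0 and 7.42 to 8.55 RPKM in tt7-7 and did not pass. MGP, PIF1, PIF3 and SOM were not analysed here.

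The GASA peptides and GAMYB factors, which act downstream of gibberellin, split in direction. Of 9 genes 7 were tested, of which 4 rose and 2 fell, against 51.1% and 8.47% of all tested genes, and the median log2 fold change was 0.73. Under median-ratio scaling 2 rose and 2 fell, where 26.9% and 26.8% of all tested genes did. GASA14 was at 48.0, 13.2 and 9.57 RPKM in Col-0 and at 105, 69.2 and 72.5 RPKM in tt7-7. Its groups did not overlap, but Col-0 replicate 1 lay far above the other Col-0 samples, and the log2 fold change of 2.07 was 2.74 without that sample and 1.63 without Col-0 replicate 3. GASA4 fell from 16.6 ± 1.49 to 10.8 ± 1.46 RPKM and GASA6 from 210 ± 30.2 to 130 ± 30.4 RPKM (SD, n = 3 each), with limma adjusted p of 0.00754 and 0.0133. Both calls were lost with the length trend removed, at -0.25 and -0.36, and that of GASA6 also without tt7-7 replicate 1, at -0.55 with 0.0537. Of the GAMYB genes MYB33 changed by 1.63, MYB65 by 0.76 and MYB101 by 0.73. MYB65 and MYB101 were not called under median-ratio scaling, at limma adjusted p of 0.0714 and 0.183. MYB33 and MYB65 were under 2 RPKM in at least 1 Col-0 sample and were listed through tt7-7 alone.

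Transporters reported to carry gibberellin were represented by SWEET13 and NPF3. SWEET13, also a sucrose transporter gene, was at 10.7, 8.24 and 6.65 RPKM in Col-0 and at 2.83, 3.28 and 3.998 RPKM in tt7-7, a change of -1.11 on the log2 scale (limma adjusted p = 0.000975). NPF3 was at 28.0, 21.6 and 14.5 RPKM in Col-0 and at 18.4, 11.5 and 12.3 RPKM in tt7-7, and its groups overlapped with a limma adjusted p of 0.0798. Under median-ratio scaling it was called lower at -1.03 (limma adjusted p = 0.00673), as was SWEET13. SWEET14 was not analysed here.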

How the data were processed

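RNA-seq of whole seeds was deposited as a table of RPKM values with decimal commas, in which every gene exceeds 2 RPKM throughout one genotype or the other, a limit read from the deposited values. The submitters' processing notes name cutadapt, FastQC, HISAT2, HTSeq, DESeq2 and the build TAIR10. For versions, roles and strandedness the labels give nothing. The members and gene lists were chosen with earlier results of these data known.

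Reads were recovered from the RPKM steps with the longest RefSeq transcript (TAIR10.1) as gene length. For 16855 genes, 99.3% of the table, every sample gave whole reads to within 0.02, and lengths of the other 112 were found by search. The authors' counts were not otherwise seen. Replicates of a genotype differed by a chi-square per degree of freedom of 22.5 to 163, so none was treated as a duplicate.

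The test was limma 3.58.1 (R 4.3.3) on log2(RPKM + 1) with a trended prior, all 6 samples, no covariate and a mean of at least 2 RPKM, which left out 304 genes. P-values were two-sided and Benjamini-Hochberg adjusted over 16663 genes. Fold changes on this scale understate those of low genes. Named were all measured members, TT7, up to 6 called genes per list in order of p, and the gene nearest in profile to each called member. Other genes named were chosen after their values were seen. Python 3.11.15, Biopython 1.88 and scipy 1.17.1 were also used.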

Additional observations from a re-analysis of the deposited data

How the results depend on the processing

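With quantile normalization, as with median ratios, 5 members were called lower and 1 higher. Of all 16663 tested genes, 3576 were called lower and 4468 higher with quantiles, and 4469 and 4476 with median ratios. On the deposited scale these counts were 1412 and 8517. With scaling outside the 100 genes with the most reads, a prior without trend, voom on recovered reads, or the length trend removed, 2 members were called lower, GAI joining RGL1. In that order 2472, 1412 and 1396 of 16663 tested genes were called lower, and 1062 of 16554 with the length trend removed. With a mean of at least 10 RPKM 4 members were tested, and 0 were called higher because GID1A and SPY were left out. With single samples left out members called lower numbered 1 to 2, and members called higher 2 each time. Over all 16663 tested genes these fits called 1004 to 1483 lower and 7292 to 9100 higher.

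RGL2 changed sign to -0.41 with median ratios, -0.45 with quantiles, -0.15 outside the 100 genes and -0.073 without the length trend. SLY1 changed sign to -0.35 with median ratios and with quantiles, and to -0.090 outside the 100 genes. With the GC trend removed RGA was at 0.013 and RGL3 at 0.24. With single samples left out RGA ranged from -0.13 to 0.095, RGL3 from -0.099 to 0.12 and SLY1 from -0.036 to 0.23. RGA was above 0 without Col-0 replicate 1 and, at 0.028, without tt7-7 replicate 3, RGL3 without Col-0 replicate 1, and SLY1 was below 0 without Col-0 replicate 3. The cause of these changes was not tested.

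Other gibberellin genes called higher numbered 12 with median ratios and 13 with quantiles. Those called lower numbered 14 under median-ratio scaling, 2 with a mean of at least 10 RPKM, where 31 were tested, and 3 with the length trend removed. With single samples left out they numbered 19 to 21 higher and 4 to 7 lower. Over all tested genes, 8517 higher and 1412 lower calls became 4476 and 4469 with median ratios and 4468 and 3576 with quantiles, and 2472 were lower with scaling outside the 100 genes. A mean of at least 10 RPKM gave 4351 higher, but of only 9743 genes tested in place of 16663. With single samples left out they ranged from 7292 to 9100 higher and from 1004 to 1483 lower.

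With the replicate number as a block, 2 members were called higher and 1 lower, as without it. Of all 16663 tested genes 8587 were then called higher and 1583 lower. Deviations from the group means of samples with the same number correlated at 0.21, -0.19 and 0.48, so the numbers were not taken to pair the samples. For 26 genes, TT7 and the called list genes chosen by the naming rule, 460 values under alternatives were computed. Of these 433 kept direction and side of the threshold, 27 lost the call and 0 reversed. The list genes were chosen as already called, and changes of filter, prior or block leave a fold change as it was, so few reversals could arise. With the measured members added, 600 values for 34 genes were computed. Of those 546 kept both, 29 lost the call, 12 gained it and 13 reversed. Other genes named are not in these counts. Among the gibberellin genes of these, median ratios turned GA3 from 0.10 to -0.39 and KAO1 from 0.044 to -0.46. GA20OX3 turned from 0.12 to -0.38 and BOI from 0.043 to -0.42. These genes were then called lower, and RBX1, NPF3, GA20OX2 and GA3OX4 were newly called lower too. ASK2 and SCL3 also turned below 0 but were not called. With the length trend removed SPY was at 1.01, below its values of 1.17 with median ratios and 1.08 with quantiles. Depth limits RGL3 most, at 82 to 175 reads per library.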
